A study of Homo sapiens with 9 samples.

Results

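Histone genes encode the proteins around which DNA is wound, and 91 genes of the table carry a histone symbol of the H1, H2A, H2B, H3, H4 or macroH2A families. Members were chosen by symbol and by a mean normalized count of at least 1 over the 9 libraries, which left 75 of the 91 histone genes and of the 19984 genes in all. Of these 75, 55 lie in the histone gene clusters, 44 of them on chromosome 6 and 11 on chromosome 1, and 20 lie outside them. Of the 16 histone genes under the limit, 9 had no read in any library. The members nearest the limit were *H1-3* with a mean of 1.31 and *H1-7* with 1.55, and the genes just under it were *H3-4* with 0.990 and *H2BW2* with 0.774.

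The libraries come from LNCaP, an established human line of androgen-responsive prostate cancer cells. In the *EPCART*-del clones, named del-4 and del-56, CRISPR-Cas9 editing had removed the promoter and the first exons of the long noncoding RNA gene *EPCART*. The WT clone, which kept that gene, is the reference for both deletion clones. Each clone gave 3 biological replicates, cultured for 48 hours, and no other treatment is given. Each genotype rests on 1 or 2 clones, so what belongs to a clone and what belongs to the deletion cannot be told apart. The replicates of a clone share its genome, so p-values measure the spread between cultures of a clone.

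Replication-dependent histone genes sit in clusters, are transcribed in S phase and supply the bulk of histones for new chromatin. Their mRNAs usually end in a short stem-loop bound by the protein SLBP in place of a polyA tail. Replacement variants such as H2A.Z, H2A.X and H3.3 are encoded by dispersed genes, mostly with polyadenylated mRNAs, and are placed in chromatin at any time of the cell cycle. The libraries were selected for polyA, so they sample the polyadenylated part of the cluster genes' RNA.

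The stem-loop sequences are shown because every cluster gene held one and most other members did not. Within 100 bases after the stop codon on the transcribed strand, a 16-base pattern (GG, 3 bases of any kind, TTNTNA, 3 bases of any kind, CC, with N for any base) was present in 55 of 55 cluster genes. It was present in 3 of the 20 members outside the clusters, *H2AX*, *H3-7* and *H4C16*, and not in *H2AJ*. Of 19675 genes without a histone symbol, 17 held it, which is 0.0864%. A match is a description of the letters and was not tested as a processing site. The 9 different sequences found are represented here by the 4 commonest, by that of *H2AX* and by that of *H2AC11*, with the loop of the stem-loop in capitals.
33 cluster genes and H3-7, with H1-2 and H2AC6 among them: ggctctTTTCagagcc
7 cluster H4 genes and H4C16: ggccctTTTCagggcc
H2BC12, H2BC11, H2BC4 and 4 other cluster genes: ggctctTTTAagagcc
H4C9, H4C12, H4C14 and H4C15: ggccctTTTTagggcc
H2AX: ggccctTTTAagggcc
H2AC11: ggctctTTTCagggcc
In *H1-2* it lay at chr6:26055744-26055759 on the minus strand of GRCh38, and in *H2AX* at chr11:119094898-119094913 on the minus strand.

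Reads on genes ranged from 91074556 to 118877134 per library. Most low counts were even (83.8% of values of 1 to 20 reads), as they are where both mates of a pair are counted. The luminal prostate markers *KLK2*, *KLK3*, *TMPRSS2*, *KRT8* and *KRT18* were at 5012 or more in every library. Of the 11 markers of basal, stromal, immune and endothelial cells, 9 had at most 10 reads in any library, while *KRT14* reached 64 reads and *COL1A1* lay between 937 and 1359.

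*H2AJ* encodes the H2A.J variant of histone H2A, which is known to accumulate in senescent fibroblasts, and it was the member with the largest difference between the clones and WT. The gene (ENSG00000246705.4) lies on the plus strand of chromosome 12, from 14774405 to 14778002 in GRCh38. Its normalized count was 2851, 3013 and 2765 in WT, and 3.84, 0 and 0 in del-4. In del-56 it was at 0 in all 3 libraries. The WT libraries lay close together and far above the 6 libraries of the deletion clones, in which 4 reads of del-4 replicate 1 were all that was counted.

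The WT mean of *H2AJ* was 2876 ± 126 (SD, n = 3). The del-4 mean was 2246-fold lower, with a 95% interval of 622 to 18546 that covers counting error only and takes the 4 reads as 2 fragments. Against a floor of 3 reads per library, del-56 was at least 907-fold lower than WT. No test is given for *H2AJ* or *H4C16*, since both passed the filter of the fits through the WT libraries alone.

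*H4C16*, a dispersed gene for canonical histone H4 (also called *H4-16*), lies next to *H2AJ* on the opposite strand, from 14767999 to 14771131 of chromosome 12 (ENSG00000197837.3). Its normalized count was 28.0, 31.9 and 39.6 in WT and 0 in all 6 libraries of the deletion clones. It was low in WT too, at 33.2 ± 5.89 (SD, n = 3). Against the same floor del-4 was at least 11.2-fold lower than WT, and del-56 at least 10.5-fold lower.

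The promoters of this gene pair are shown because both genes were lost together, as the 250 bases before each start in the RefSeq table for GRCh38.p14, written along the direction of transcription. Capitals mark the CCAAT box (CCAAT) and the TATA box (TATAAA), searched on both strands.
H2AJ, chr12:14774155-14774404, plus strand: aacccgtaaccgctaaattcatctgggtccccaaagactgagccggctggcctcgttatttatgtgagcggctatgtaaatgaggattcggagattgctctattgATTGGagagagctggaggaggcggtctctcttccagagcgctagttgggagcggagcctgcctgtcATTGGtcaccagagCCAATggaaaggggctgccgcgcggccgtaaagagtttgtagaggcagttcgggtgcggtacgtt
H4C16, chr12:14771132-14771381, minus strand: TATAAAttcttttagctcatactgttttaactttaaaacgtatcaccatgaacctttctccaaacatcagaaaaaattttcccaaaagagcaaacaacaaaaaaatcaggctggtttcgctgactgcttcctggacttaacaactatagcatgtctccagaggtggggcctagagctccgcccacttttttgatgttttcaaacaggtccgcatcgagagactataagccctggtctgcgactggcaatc
The *H2AJ* promoter held 3 CCAAT boxes and no TATA box in this window, and the *H4C16* promoter held 1 TATA box at its far end.

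The genes on either side of the pair had reads in all clones or were nearly silent in all of them. *WBP11*, which encodes a splicing factor, is the nearest gene after *H2AJ*, 6580 bases away. Its normalized count was 11412 ± 36.8 (SD, n = 3) in WT, against 11256 ± 331 in del-4 and 12463 ± 465 in del-56. On the log2 scale del-4 differed from WT by -0.02 (limma, adjusted p = 0.694) and del-56 by 0.13 (limma, adjusted p = 0.0143). *GUCY2C*, an intestinal guanylate cyclase gene on the other side, had at most 7 reads in any library. Of 12 other genes within 500 kb, 10 were tested in each clone against WT. In del-4 the called gene was *ATF7IP*, a chromatin regulator, at a log2 fold change of 0.36 (limma), and in del-56 the called genes were *ATF7IP* at 0.30 and *WBP11*, all 3 calls upwards. These are 10 and 20% of those tested, where 19 and 21.1% of all chromosome 12 genes were higher.

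**Figure D1:**
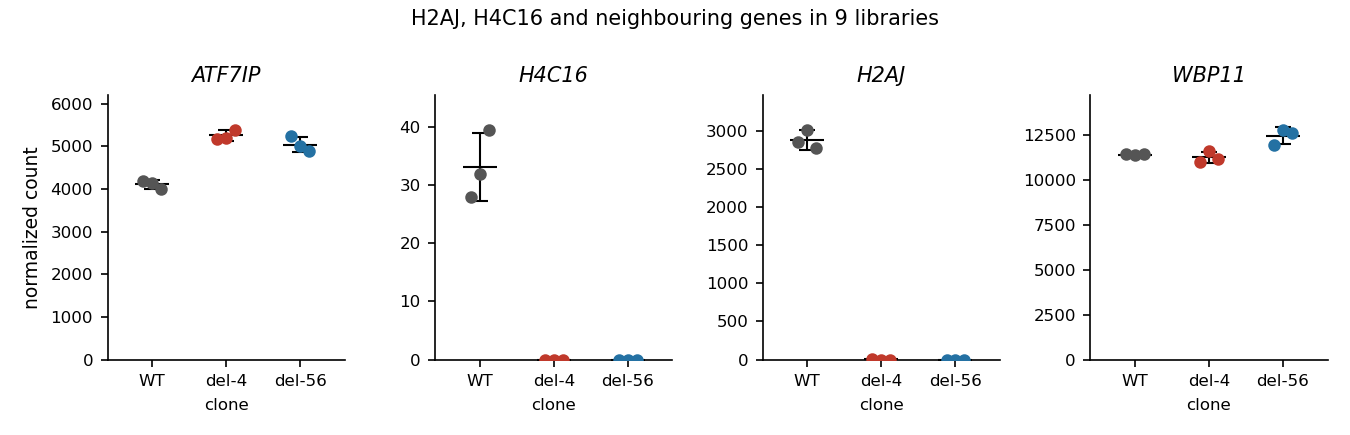
Normalized counts of *H2AJ*, *H4C16* and of *ATF7IP* and *WBP11*, other genes within 500 kb, in the 3 libraries of each clone. Points are libraries, the short bars their mean and the whiskers the SD (n = 3). *H2AJ* and *H4C16* were at or near 0 in all 6 libraries of the deletion clones, while the other genes stayed between 3999 and 12813.

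Per length, the members outside the clusters held the highest levels. *H2AZ1* had a mean of 47722 normalized counts per kb of exon over the 9 libraries, *H2AX* 29528, *H1-10* 25456 and *H3-3A* 17734. The most abundant cluster genes per length were *H2BC12* with 17590, *H1-2* with 11769, *H4C9* with 7855, *H2AC6* with 2838 and *H2BC21* with 2566. In WT the median member of the clusters was at 264 per kb and the median member outside them at 243. These levels are of polyadenylated RNA and do not give total histone mRNA.

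Summed over the clusters, histone transcripts lay above WT in del-4 and below it in del-56. Per 1000000 normalized counts of a library, the 55 genes summed to 452, 455 and 459 in WT, to 760, 717 and 717 in del-4 and to 386, 377 and 398 in del-56. None of the 3 clones overlapped with another. In bulk RNA, fewer cells in S phase and less RNA per cell cannot be told apart. On this scale the mean sum in del-4 was 1.61 times that of WT, and that in del-56 was 0.85 times, while the sums of normalized counts, not divided by the library's total, gave ratios of 1.69 and 0.867. *H2BC12* and *H1-2*, the most abundant cluster genes, held between 24.5 and 34.5% of the sum, and without them the ratios per 1000000 were 1.46 and 0.872. The sum over members outside the clusters on the same scale was 3771 to 3829 in WT, against 3633 to 3689 in del-4 and 3421 to 3441 in del-56.

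**Figure D2:**
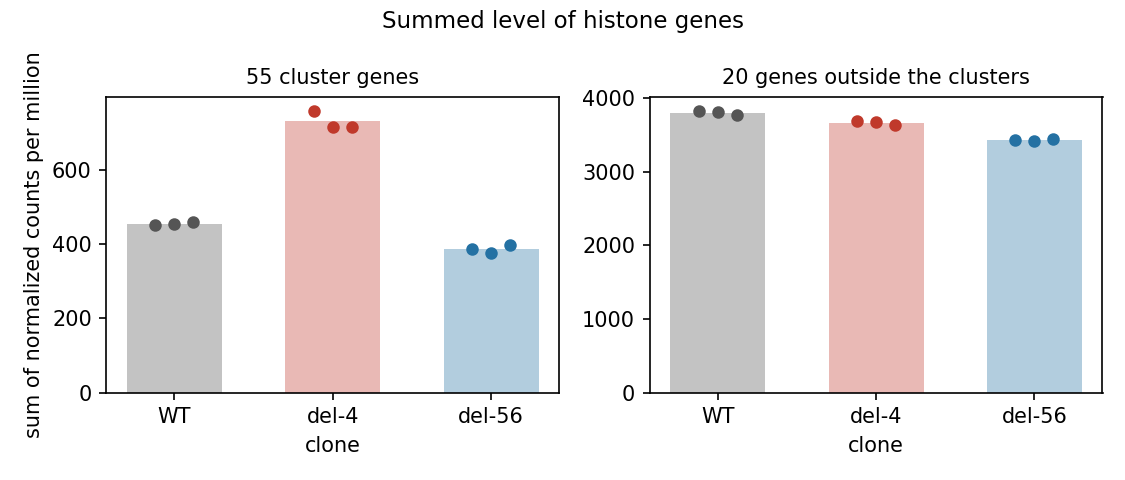
Summed normalized counts of the 55 cluster genes and of the 20 members outside the clusters, per 1000000 normalized counts of the library. Bars are means of 3 libraries and points the libraries. The cluster genes of del-4 sat at 717 to 760, above WT at 452 to 459, and those of del-56 at 377 to 398, below WT.

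In del-4, 28 of the 55 cluster genes were higher than in WT and 3 lower at a Benjamini-Hochberg adjusted p under 0.05 (limma). That is 50.9% higher and 5.45% lower, where 20.5% of all 17401 genes tested were higher, 20.2% lower and 40.7% called either way. The median log2 fold change of the cluster genes was 0.53, and that of all genes tested was -0.0028. Of the called genes, 3 were higher by more than 1 on the log2 scale (1.89% of all genes) and 1 lower by more than 1 (2.94% of all genes). All 3 libraries of del-4 lay above WT for 31 cluster genes and below it for 4, where 24.8% of all genes lay above and 24.8% below.

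*H1-2*, which encodes a somatic linker histone that binds the DNA entering and leaving the nucleosome, rose most among the abundant cluster genes of del-4. Its normalized count was 14462, 14283 and 13296 in del-4, 5112, 5723 and 5924 in del-56, and 6820, 6113 and 5695 in WT. The del-4 libraries stood far above the rest, and those of del-56 overlapped with WT. Against WT the log2 fold change was 1.18 (SE 0.053, limma, adjusted p = 7.64e-12) for del-4 and -0.15 (SE 0.063, limma, adjusted p = 0.0691) for del-56. The second value passed the threshold after rescaling to the same total (-0.18, adjusted p = 0.0275) and without WT replicate 3 (-0.21, 0.0279).

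*H2BC12*, an H2B gene of the same chromosome 6 cluster, counted 14735, 13286 and 13368 in del-4, 5269, 5018 and 5255 in del-56, and 7053, 7146 and 7234 in WT. The 3 clones did not overlap, with del-4 highest and del-56 lowest. It rose by 0.95 on the log2 scale in del-4 (SE 0.041, limma, adjusted p = 5.16e-12) and fell by 0.46 in del-56 (SE 0.040, limma, adjusted p = 1.92e-07). Its coding sequence is 98.9% identical to that of *H2BC12L* on chromosome 21, so reads of these genes may be split or shared. *H2BC12L* counted up to 29.9 in WT, against 38.8 to 48.0 in del-4 and 14.3 to 31.1 in del-56, with no call in either clone.

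The *H2BC12* promoter is printed because it belongs to the most abundant cluster gene and holds the octamer that is common among cluster H2A and H2B genes. Capitals mark the octamer (ATTTGCAT), the CCAAT box and the TATA box on either strand, and matches that overlap are merged.
H2BC12, chr6:27146859-27147108, minus strand: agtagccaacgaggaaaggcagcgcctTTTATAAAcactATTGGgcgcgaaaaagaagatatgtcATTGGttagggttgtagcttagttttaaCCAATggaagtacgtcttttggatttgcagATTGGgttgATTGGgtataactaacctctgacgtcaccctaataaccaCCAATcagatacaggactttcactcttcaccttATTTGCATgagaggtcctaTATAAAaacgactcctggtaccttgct
Of 27222 RefSeq genes without a histone symbol, 1.94% held the octamer in the same window. It was found in 10 of 13 cluster H2A genes and 11 of 15 cluster H2B genes, and in 0 of 9 cluster H4 genes. The CCAAT box was in 84% of 50 cluster genes with a promoter in the table and in 36.9% of other genes. For the TATA box these shares were 68% and 12.9%.

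Other abundant cluster genes followed the same order of clones. *H2AC6*, an H2A gene, counted 7172, 6480 and 6829 in del-4, 3297, 3379 and 3692 in del-56, and 3877, 3945 and 3929 in WT. *H4C9*, an H4 gene, counted 5010, 4488 and 4771 in del-4, 2148, 1988 and 1968 in del-56, and 2522, 2510 and 2660 in WT. In both genes the 3 clones did not overlap. *H2AC6* rose by 0.80 and *H4C9* by 0.89 on the log2 scale in del-4, while they fell by 0.18 and by 0.33 in del-56 (limma, all adjusted p under 0.05).

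*H4C8* counted 1748 to 1875 in WT, against 3444 to 3584 in del-4 and 1447 to 1625 in del-56, a log2 rise of 0.96 (limma, adjusted p = 6.69e-11) beside a change of -0.26 (limma, adjusted p = 0.00451). *H2BC11* counted 553 to 616 in WT, against 1126 to 1311 in del-4 and 383 to 480 in del-56, a rise of 1.07 (limma, adjusted p = 2.11e-08) beside a log2 fold change of -0.44 (limma, adjusted p = 0.00626). Both genes had the 3 clones apart. *H2BC17*, a less abundant H2B gene, counted 72.4 to 85.0 in WT, against 153 to 205 in del-4 and 38.8 to 84.9 in del-56. Its log2 fold change in del-4, 1.20, was the largest among the called cluster genes, and that in del-56 was -0.26 with no call.

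**Figure D3:**
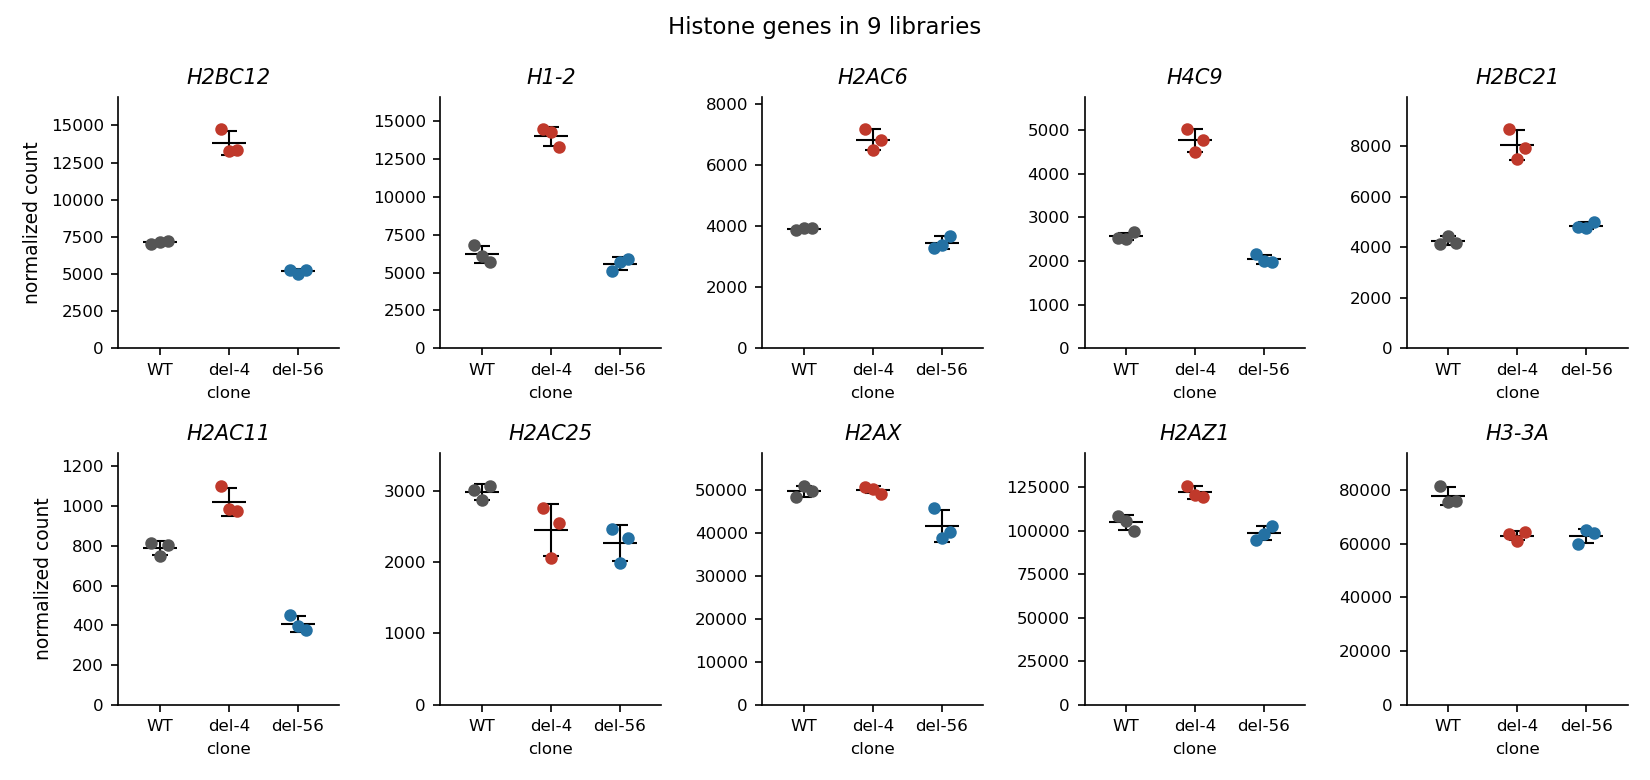
Normalized counts of 7 cluster genes (*H2BC12*, *H1-2*, *H2AC6*, *H4C9*, *H2BC21*, *H2AC11* and *H2AC25*) and of *H2AX*, *H2AZ1* and *H3-3A* in the 3 libraries of each clone. Points are libraries, the short bars their mean and the whiskers the SD (n = 3). The first 5 panels show del-4 well above WT, and the panels of *H2AC25* and *H3-3A* show both deletion clones below it.

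In del-56, 17 of the 54 cluster genes tested were lower than in WT and 4 higher (limma). That is 31.5% lower and 7.41% higher, where 20.5% of 17481 genes tested were lower, 19.2% higher and 39.7% called either way. The median log2 fold change was -0.21, beside -0.0011 over all genes tested. Of the called genes, 1 was lower by more than 1 on the log2 scale (2.69% of all genes). No cluster gene tested reached 1 in the other direction, the largest value being 0.86, and 2.18% of all genes were called above 1. All del-56 libraries lay below WT for 21 cluster genes and above it for 6, where 24.8% of all genes lay below and 24% above. *H2AC11*, an H2A gene, counted 453, 398 and 375 in del-56, 813, 750 and 804 in WT, and 1103, 985 and 974 in del-4, so that no clone overlapped with another. It fell by 0.95 in del-56 (limma, adjusted p = 2.81e-06) and rose by 0.37 in del-4 (limma, adjusted p = 0.00144).

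*H1-5*, a linker histone gene, counted 37.2, 46.2 and 47.3 in del-56 and 117, 89.8 and 66.9 in WT. It fell by 1.02 on the log2 scale in del-56 (limma, adjusted p = 0.00982), which was lost without WT replicate 1 (adjusted p = 0.0587). *H2BC8* fell by 0.73 in del-56 (limma, adjusted p = 0.00436) and rose by 0.49 in del-4 (limma, adjusted p = 0.0115), the rise being lost without del-4 replicate 1 (adjusted p = 0.0722) or WT replicate 2 (0.0501). *H3C15*, an H3 gene, fell by 0.62 in del-56 (limma, adjusted p = 0.00222), beside -0.03 with no call for del-4.

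The direct comparison of the deletion clones, which does not use WT, gave 30 of 55 cluster genes higher in del-4 and 0 lower (limma). Among all 17447 genes tested, 10.9% were higher, 9% lower and 19.9% called either way, and among the cluster genes 54.5% were higher. At an unadjusted p under 0.05, 3 cluster genes were lower in del-4, and edgeR and DESeq2 called 0 lower. The median log2 fold change between the clones was 0.58, beside -0.0026 over all genes tested, and 11 cluster genes were higher by more than 1 (1.38% of all genes). All del-4 libraries lay above del-56 for 33 cluster genes and below for 4, where 17.6 and 17.1% of all genes did. The largest of these called differences were those of *H2BC11* at 1.51, *H2BC17* at 1.46, *H2BC12* at 1.41, *H1-2* at 1.33 and *H2AC11* at 1.32. The smallest were *H2BC18* at 0.40, *H2BC6* at 0.47, *H2AC17* at 0.49, *H2AC8* at 0.49 and *H2BC15* at 0.55.

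Both comparisons with WT use the same WT libraries. In them, 11 cluster genes were above WT for del-4 and below it for del-56 (limma calls), namely *H2AC6*, *H2AC11*, *H2BC4*, *H2BC8*, *H2BC11*, *H2BC12*, *H3C12*, *H4C8*, *H4C9*, *H4C14* and *H4C15*. For opposite calls of this kind no share of all genes was computed, so the count of 11 is a description. Of all genes tested, 40.7% were called either way in del-4 and 39.7% in del-56. Among the 11, *H4C14* and *H4C15* are identical in coding sequence and may not be separate measurements. All 11 cluster genes were also higher in del-4 in the direct comparison. *H3C12* had the smallest rise of them, 0.25 on the log2 scale for del-4 (limma, adjusted p = 0.0317), beside -0.33 for del-56 (limma, adjusted p = 0.0297). Its call in del-4 was lost without any 1 of del-4 replicates 1 and 2 and WT replicates 1 and 3 (adjusted p up to 0.124), after rescaling to the same total (0.128) and in 1 fit of all 9 libraries (0.0616). Its call in del-56 was lost without any 1 of del-56 replicate 2 and WT replicates 2 and 3 (adjusted p up to 0.15), after quantile normalization (0.0668) and with a replicate block (0.0652). Its exons share 346 bases with *H2AC17* on the same strand, so counts of these genes are not independent. Exons of *H2BC4* overlap by 430 bases with those of *HFE* on the opposite strand.

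**Figure D4:**
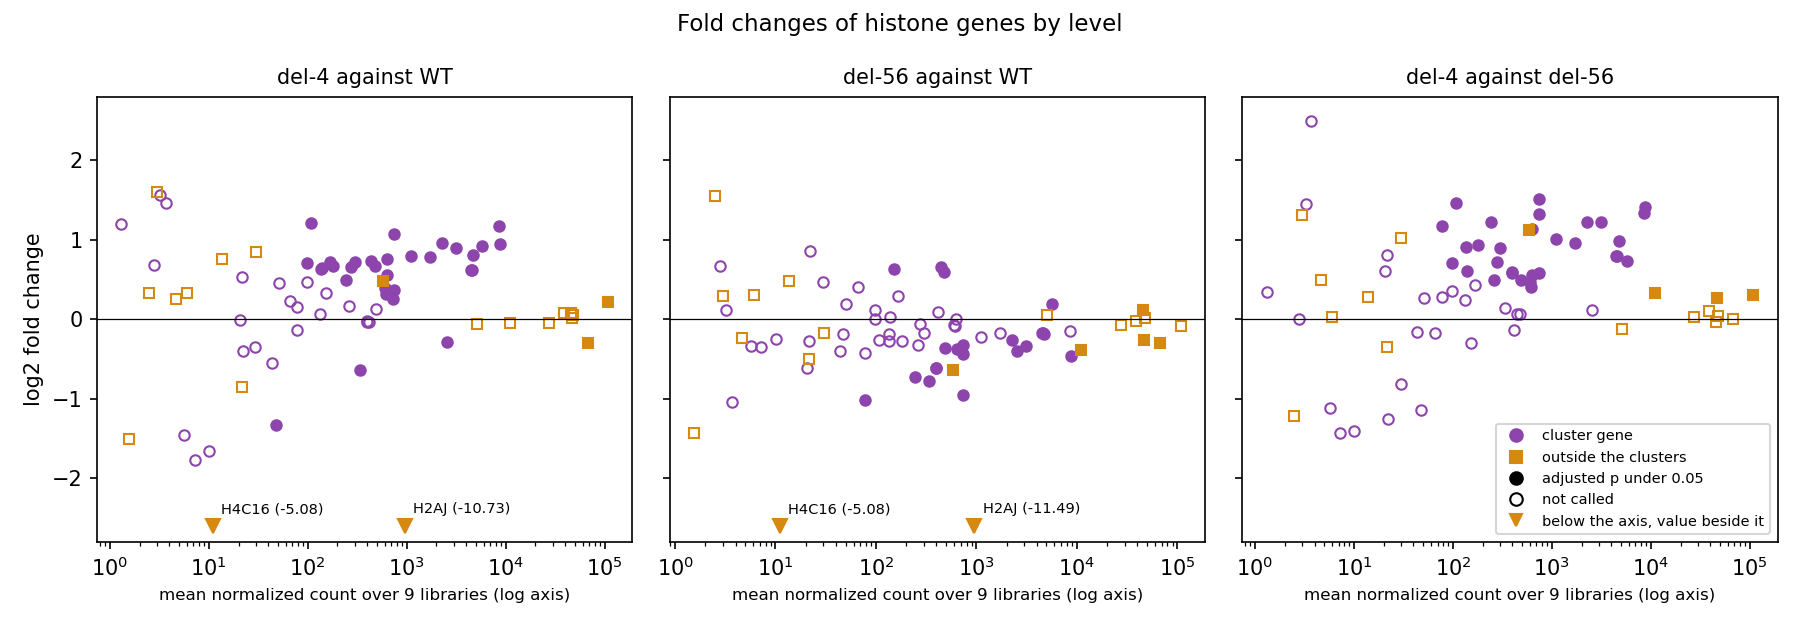
Log2 fold change of each member tested against its mean normalized count on a log axis, for del-4 against WT, del-56 against WT and del-4 against del-56. Filled circles and squares had an adjusted p under 0.05. Triangles mark *H2AJ* and *H4C16*, which lie below the axis at the values printed. No test is given for this pair, and the fill of the triangles is not to be read as one. The filled cluster genes lie mostly above 0 on the left and all above 0 on the right.

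Some cluster genes departed from this order. *H2BC21*, an H2B gene of chromosome 1, counted 8655, 7497 and 7920 in del-4, 4796, 4739 and 4993 in del-56, and 4137, 4450 and 4174 in WT. It was above WT in both clones, by 0.91 on the log2 scale for del-4 (limma, adjusted p = 9.66e-11) and by 0.19 for del-56 (limma, adjusted p = 0.00366). *H4C11* and *H4C12* rose in both clones as well, *H4C11* by 0.67 and 0.60 and *H4C12* by 0.72 and 0.66 (del-4 first). *H2AC14* was called higher in del-56 at 0.63 (limma, adjusted p = 0.0195), a call lost without del-56 replicate 3 or WT replicate 1, while del-4 had 0.33 (limma, adjusted p = 0.236). The direct difference of *H2AC14* between the clones, -0.30, missed the threshold (limma, adjusted p = 0.277).

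*H2AC25* and *H2BC26* form a separate small cluster on chromosome 1, farther along than that of *H2BC21*, and were lower in both clones. *H2AC25* counted 2754, 2048 and 2542 in del-4, 2465, 1980 and 2333 in del-56, and 3004, 2862 and 3069 in WT, with all WT libraries above the others. The gene fell by 0.29 on the log2 scale in del-4 (limma, adjusted p = 0.00586) and by 0.40 in del-56 (limma, adjusted p = 0.000247). Without WT replicate 3 the first of these calls was lost (adjusted p = 0.0565). *H2BC26* fell by 0.64 in del-4 and by 0.77 in del-56. *H3C1*, the first H3 gene of the chromosome 6 cluster, counted 11.5, 36.9 and 30.1 in del-4 and 67.6, 47.3 and 70.7 in WT. It fell by 1.34 in del-4 (limma, adjusted p = 0.0131), which was lost without del-4 replicate 1 (adjusted p = 0.0673), WT replicate 1 (0.0565) or WT replicate 3 (0.0761). Its direct difference between the clones, -1.15 (limma, adjusted p = 0.0611), passed the threshold in 1 fit of all 9 libraries (0.0418), with a pseudocount of 5 (0.0461), after rescaling (0.0496) and without del-4 replicate 2 (0.0346).

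Calls were more common among the more abundant cluster genes, for which the SE of the fit was smaller. In del-4 against WT the SE was 0.041 for *H2BC12* and 1.08 for *H1-3*. Shares of all genes called at the same levels were not computed, so the counts by level are a description. Of the 11 cluster genes with a mean of at least 1000, 10 were higher in del-4 and 1, *H2AC25*, was lower, with a median log2 fold change of 0.80. Of the 25 genes between 100 and 1000, 17 were higher and 1 lower in del-4, with a median of 0.49. Of the 19 genes under 100, 1 was higher and 1 lower, with a median of 0.15. In del-56 the same level classes held 7, 9 and 1 lower genes and 1, 3 and 0 higher ones.

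By family, 11 of 15 cluster H2B genes (73.3%) were higher in del-4, where 20.5% of all genes were, with a median log2 fold change of 0.70. Of 11 H4 genes 63.6% were higher (median 0.63), of 14 H2A genes 35.7% (median 0.25), of 10 H3 genes 40% (median 0.11) and of 5 H1 genes 20% (median 0.68). The H1 median is the value of *H1-6*, which had a mean normalized count of 2.79 and an SE of 1.07. *H1-3*, another of the 5, had a mean of 1.31, so the H1 median rests on genes near the limit. In del-56 the lower genes were 5 H2B, 4 H4, 4 H2A, 3 H3 and 1 H1. All 5 family medians between the clones were above 0, from 0.35 for H1 to 0.79 for H4, also after rescaling to the same total or quantile normalization. The H4 genes higher in del-4 include *H4C11* and *H4C12*, and *H4C14* and *H4C15*, pairs identical in coding sequence. No difference between families was tested.

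Identical copies limit how many of these are separate measurements. *H4C14* and *H4C15* have the same coding sequence, and their counts differed by 1.25 to 2.86% in each library, while those of *H3C14* and *H3C15* differed by at most 1.24%. The counts of *H4C11* and *H4C12*, also identical in coding sequence, differed by 2.43 to 13.5%. Values for these pairs are therefore uncertain for either gene alone. With 1 gene of each pair, 26 of 52 cluster genes were higher and 3 lower in del-4. For del-56 these counts were 3 and 15 of 51 tested.

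The other genes of the same stretch of chromosome 6 had calls in both directions. Between 25 and 29 Mb, 24 of 44 histone genes were higher in del-4 and 1 lower, with a median log2 fold change of 0.63. Of the 37 other genes tested there, 9 were higher and 4 lower, with a median of 0.04, which is 24.3% higher beside 20.5% of all genes. A gene among the 9 shares 96.6% of the exon bases of *H3C4* and 85.3% of those of *H2AC7*, and without it 8 of 36 were higher. For del-56, 3 of 43 histone genes tested were higher and 11 lower (6.98 and 25.6%), with a median of -0.19. Of the 37 other genes, 11 were higher and 5 lower (29.7 and 13.5%), with a median of 0.08. Among all genes tested, 19.2% were higher and 20.5% lower in del-56. The difference between histone and other genes of the stretch was not tested. On chromosome 1, 44.4% of the 9 histone genes of the larger cluster were higher in del-4, beside 36.7% of all genes of that chromosome. In del-56, 44.4% of the 9 were lower and 11.1% higher, beside 15.9 and 35.4% of the chromosome's genes. In the direct comparison 6 of 9 were higher in del-4 (66.7%, beside 9.64%). The genes lower in del-56 were *H3C14* and *H3C15*, and *H4C14* and *H4C15*, pairs identical in coding sequence. Both pairs are among the 6, and *H4C14* and *H4C15* are also among those above WT in del-4. The shares of this cluster therefore rest on fewer separate measurements than genes.

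**Figure D5:**
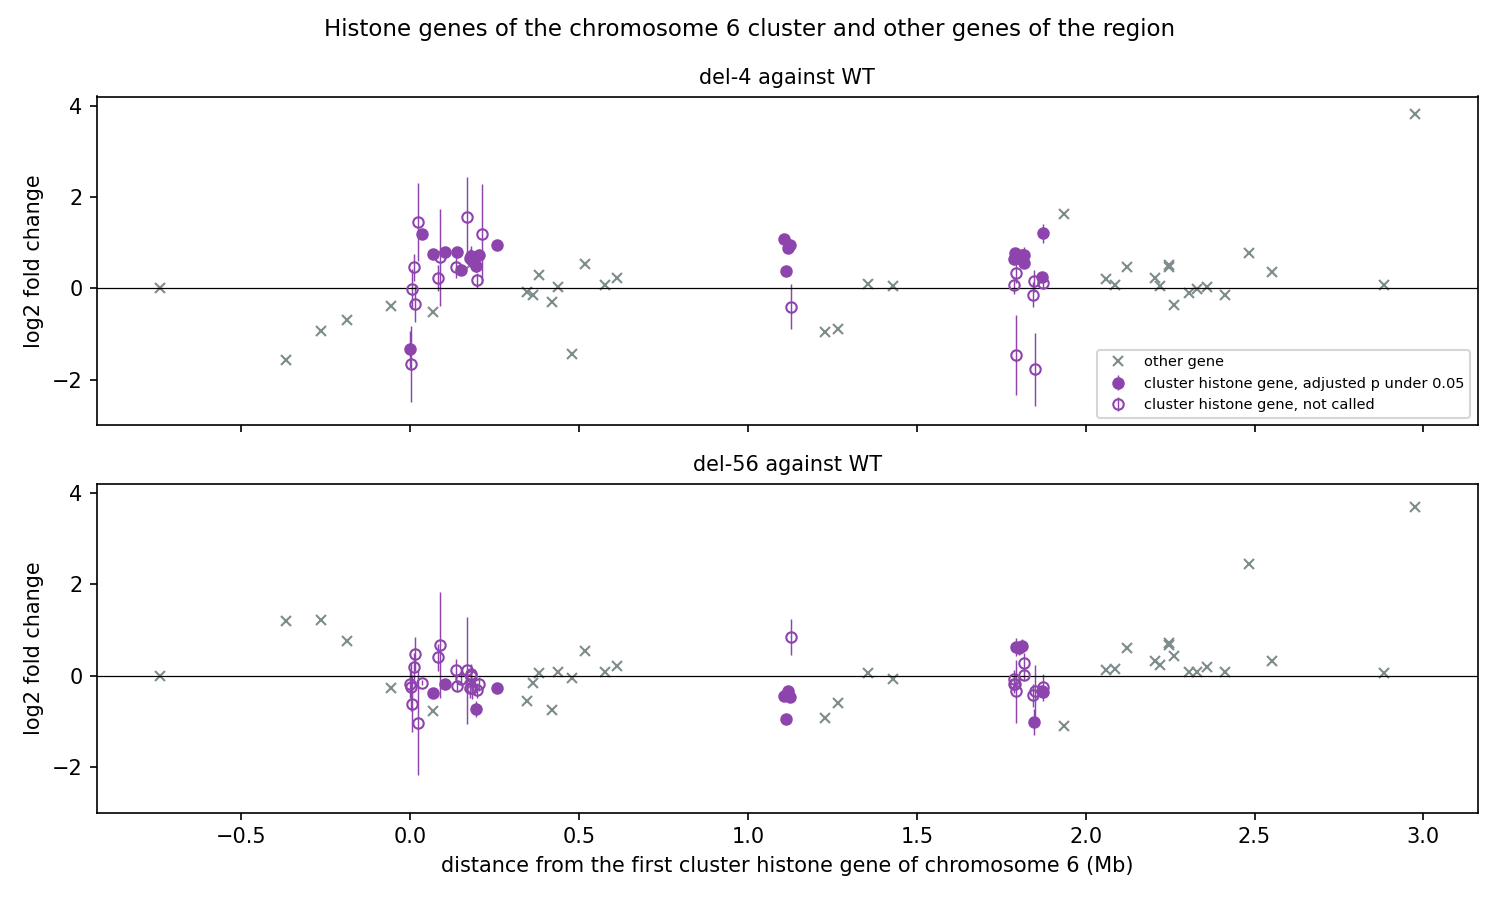
Log2 fold changes along the chromosome 6 histone cluster, by distance in Mb from its first histone gene with a mean of at least 1, for del-4 and del-56 against WT. Circles are cluster histone genes with the SE of the fit, filled at an adjusted p under 0.05, and crosses are other genes of the region. The filled circles in del-4 lie above 0 except for *H3C1* at -1.34.

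Outside the clusters, del-4 had 2 of 20 members above WT and 3 below it, and del-56 had 1 above and 6 below (limma, adjusted p under 0.05). The members below WT include *H2AJ* and *H4C16* in both clones. Their calls are not given as tests, since both passed the filter of the fits through the WT libraries alone. Of the 18 others, 2 were above and 1 below WT in del-4 (11.1 and 5.56%), and 1 was above and 4 below in del-56 (5.56 and 22.2%), beside the shares of all genes given above. In the direct comparison, 4 of 17 tested were higher in del-4 and 0 lower by limma, edgeR and DESeq2, with 1 lower at an unadjusted p under 0.05. The median log2 fold change of the 18 was 0.08 with del-4 and -0.08 with del-56. Over all 20 it was 0.06 and -0.13, and the former turned to -0.0072 when libraries were rescaled to the same total and to -0.033 without del-4 replicate 1. Apart from *H2AJ* and *H4C16*, no called member outside the clusters changed by more than 0.65 on the log2 scale against WT.

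*H2AZ1*, which encodes the H2A.Z variant found at promoters, was the most abundant histone gene per length. Its normalized count was 125857, 120585 and 119280 in del-4, 94581, 98119 and 102567 in del-56, and 108608, 105441 and 99933 in WT. All del-4 libraries were above WT, and those of del-56 overlapped with it. Relative to WT it was higher by 0.22 on the log2 scale in del-4 (limma, adjusted p = 0.00046), which quantile normalization took to 0.03 (adjusted p = 0.522). For del-56 the value was -0.09 (limma, adjusted p = 0.151), which passed the threshold after rescaling to the same total (-0.12, adjusted p = 0.0297) and after quantile normalization (-0.18, 0.0011). *H2AZ2*, the second H2A.Z gene, had -0.05 for del-4 (limma, adjusted p = 0.31) and -0.07 for del-56 (limma, adjusted p = 0.143). After rescaling it was called lower in both clones, at -0.12 (adjusted p = 0.00718) and -0.10 (0.0348), and likewise after quantile normalization, at -0.11 (0.00799) and -0.09 (0.0452).

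*H2AX* encodes the variant that is phosphorylated around DNA double-strand breaks, and its mRNA can end either at the stem-loop or with a polyA tail. It counted 50694, 50009 and 49070 in del-4, 45757, 38666 and 40131 in del-56, and 48212, 50911 and 49623 in WT. The del-56 libraries lay below all others. The log2 fold change against WT was 0.01 for del-4 (limma, adjusted p = 0.854) and -0.26 for del-56 (limma, adjusted p = 0.000927), and between the clones it was 0.27 (limma, adjusted p = 0.00074).

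*H3-3A* and *H3-3B* encode the same H3.3 protein, the replacement form of H3. *H3-3A* counted 63597, 60911 and 64220 in del-4, 59968, 64883 and 64073 in del-56, and 81602, 75590 and 75827 in WT, with both clones below WT. It fell by 0.30 on the log2 scale in each clone (adjusted p = 9.34e-06 in del-4 and 5.92e-05 in del-56, limma). *H3-3B* counted 42128 to 44364 in WT, against 45040 to 46162 in del-4 and 45938 to 47541 in del-56. The log2 fold change was 0.08 for del-4 (limma, adjusted p = 0.0952) and 0.11 for del-56 (limma, adjusted p = 0.0257). The call in del-56 was lost without del-56 replicate 2 (adjusted p = 0.0973), without del-56 replicate 3 (0.0931), without WT replicate 2 (0.0692) or without WT replicate 3 (0.119). It was also lost after rescaling to the same total (0.0661) and with a replicate block (0.0924), while the value of del-4 was called by DESeq2 (0.0449) and without WT replicate 1 (0.0391).

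*H1-10*, which encodes the H1.X linker histone, had 0.08 for del-4 (limma, adjusted p = 0.0636) and -0.02 for del-56 (limma, adjusted p = 0.826). DESeq2 called the first of these (adjusted p = 0.021), and without del-56 replicate 1 the second was -0.10 and called (0.0378), with a difference of 0.18 between the clones (0.00135). *MACROH2A1*, whose protein carries an added macro domain, had 0.05 for del-4 (limma, adjusted p = 0.294) and 0.01 for del-56 (limma, adjusted p = 0.819). *MACROH2A2* had -0.07 for del-4 (limma, adjusted p = 0.268) and 0.05 for del-56 (limma, adjusted p = 0.4), and after rescaling del-4 was called lower than WT at -0.14 (adjusted p = 0.0283) and lower than del-56 at -0.16 (0.025).

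*H3-7*, an H3 gene of chromosome 1 that lies outside the cluster limits used here but holds the stem-loop, had the same order of clones as the abundant cluster genes. It counted 760, 858 and 787 in del-4, 406, 408 and 297 in del-56, and 580, 564 and 577 in WT, with no overlap between clones. It rose by 0.48 on the log2 scale in del-4 (limma, adjusted p = 0.000318) and fell by 0.65 in del-56 (limma, adjusted p = 0.000897), and the clones differed by 1.13 (limma, adjusted p = 3.57e-06). Its coding sequence is 98.8% identical to that of *H3C13*, so reads may be shared. A further 7 members outside the clusters had a mean under 100 and no call in either clone.

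Cluster genes also differed in annotated length, a feature chosen after their values were seen. In GENCODE version 44, 15 cluster genes have annotated sequence more than 100 bases past the stem-loop. Of these, del-4 had 13 above WT and del-56 had 8 below it, with median log2 fold changes of 0.72 and -0.18. Of the 40 whose annotation ends closer to the stem-loop, del-4 had 15 above WT and del-56 had 9 below it, with medians of 0.41 and -0.26. Over all genes tested, the share called above WT was 20.5% for del-4 (limma). The share called below WT for del-56 was also 20.5%, and the 9 of 40 lie close to it. The identical copies *H4C14* and *H4C15* are among the 15, and *H4C11* and *H4C12*, and *H3C14* and *H3C15*, among the 40. The difference between the longer and the shorter genes was not tested. The longer genes were also the more abundant ones per kb (median 1055 against 251), so annotated length and level cannot be told apart.

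Genes that process histone mRNA or place histones had calls in both directions. Of 15 genes for histone mRNA transcription and processing, del-4 had 1 above WT and 5 below, and del-56 had 2 above and 3 below (limma), beside the shares of all genes given above. *SLBP*, which binds the stem-loop and was named for that role after its values were seen, fell by 0.25 on the log2 scale in del-4 (limma, adjusted p = 0.0001) and by 0.22 in del-56 (limma, adjusted p = 0.000201). Of 26 histone chaperones and exchange factors, del-4 had 5 above and 5 below, 19.2% each, beside 20.5 and 20.2% of all genes. In del-56, 5 were above and 10 below (19.2 and 38.5%), beside 19.2 and 20.5% of all genes. *ANP32E*, which removes H2A.Z from chromatin, rose by 0.62 in del-4 and 0.48 in del-56.

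S phase genes had more calls below WT than above it in both clones. Of 22 S phase and proliferation genes, del-4 had 9 below WT and 2 above, and del-56 had 14 below and 3 above, with median log2 fold changes of -0.08 and -0.12 (limma calls). The lower genes are 40.9 and 63.6% of the list, beside 20.2 and 20.5% of all genes, and the higher genes 9.09 and 13.6%, beside 20.5 and 19.2%. *GINS2*, a subunit of the replicative helicase, counted 5234 to 5602 in WT, against 3637 to 3822 in del-4 and 3685 to 4029 in del-56. It fell by 0.53 in del-4 (limma, adjusted p = 2.26e-08) and by 0.49 in del-56 (adjusted p = 6.31e-07). In the direct comparison, 3 of the 22 genes were higher in del-4 and 1 lower (13.6 and 4.55%), beside 10.9 and 9% of all genes. The higher genes were *RRM2* (0.22 on the log2 scale), *E2F1* (0.19) and *RRM1* (0.11), and the lower gene was *CCNE1* (-0.19). Of the cluster genes, 30 of 55 were higher. The part of the cell cycle in the histone results was not tested.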

How the data were processed

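RNA-seq was measured in 3 libraries each of the LNCaP clones del-4, del-56 and WT, polyA-selected and strand-specific. The authors assessed reads with FastQC, aligned them to GRCh38 with STAR version 2.71a and counted them on GENCODE version 38 protein-coding genes with BEDTools multicov 2.27.1. The deposited signal values are normalized counts, the read count divided by 1 size factor per library, and 100% of them were whole reads after division by the step of the library, within 0.001 reads. How reads with several alignments were counted, and whether counting used strand, is not given in the sources used here, which bears on near-identical histone copies and overlapping genes. Of 19984 identifiers, 19905 were matched to symbols in GENCODE version 44.

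The main test was limma 3.58.1 in R 4.3.3, with a variance trend, on log2(normalized count + 1), and a gene entered when its mean reached 1 in the 6 libraries compared. Adjustment was Benjamini-Hochberg over all genes tested, and a gene was called at an adjusted p under 0.05. The steps were tested on simulated data. Alternatives were edgeR 4.0.16 and DESeq2 1.42.0 on the recovered reads, a log2 fold change beyond 1, pseudocounts of 0.5 and 5, no filter or a minimum mean of 10, libraries scaled to 1 total, quantile normalization, all 9 libraries in 1 model, a block for the replicate number, and each library left out in turn. On the recovered reads edgeR called 7049 genes in del-4, 6943 in del-56 and 3492 between the clones, where limma called 7082, 6938 and 3469. Tables were joined in Python 3.11.15. Same-numbered libraries of different clones did not deviate together (r from -0.053 to 0.063 over 15373 genes), so numbers were not used to pair them.

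Cluster genes lie on chromosome 6 between 25 and 29 Mb or on chromosome 1 between 148 and 151 or 228 and 229 Mb. Genes named singly were 11 fixed variants, the 5 most abundant cluster genes per kb, the 5 highest and 5 lowest called cluster genes with a mean of at least 10 in each comparison, members called in opposite directions, the nearest neighbours of *H2AJ* and, of the other lists, genes beyond 0.5 on the log2 scale. Other genes were named after their values were seen. The members, the gene lists and the rules were chosen with earlier results of these data known. Of the fixed variants 1, and of the luminal markers 2, are not reported here. Protein sequences, proteomics and qRT-PCR were not used here. Intervals and floors cover counting error only.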

Additional observations from a re-analysis of the deposited data

Results flagged for a closer look

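Of 38 named genes that are members, 24 had effects in del-4 and del-56 that differed in the direct comparison of the clones (limma, adjusted p under 0.05). The values are log2 differences of del-4 minus del-56. They were 1.51 for *H2BC11*, 1.46 for *H2BC17*, 1.41 for *H2BC12*, 1.33 for *H1-2* and 1.32 for *H2AC11*. They were 1.23 for *H2BC8*, 1.22 for *H4C9*, 1.22 for *H4C8*, 1.18 for *H1-5*, 1.13 for *H2BC4* and 1.13 for *H3-7*. Values between 0.5 and 1 were 0.98 for *H2AC6*, 0.79 for *H4C14* and its identical copy *H4C15*, 0.73 for *H2BC21*, 0.59 for *H3C15*, 0.58 for *H3C12* and 0.55 for *H2BC15*. The smallest were 0.49 for *H2AC8* and *H2AC17*, 0.47 for *H2BC6*, 0.40 for *H2BC18*, 0.31 for *H2AZ1* and 0.27 for *H2AX*. All 24 were higher in del-4. Many were named by a rule that used these comparisons, so their number is a description. The 3 libraries per clone were too few to look for single libraries that stand apart.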

How the results depend on the processing

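Of 206 counts and medians recomputed under other settings, 187 stayed within 1.5 times the count or within 1 SD between libraries, and of 120 recomputed without 1 library, 18 did not. Of 2027 recomputed fold changes of named genes, 81 in 20 genes lay on another side of the threshold (61 lost and 20 gained a call), and 0 called values changed sign. Asking also for a log2 fold change beyond 1 left 4, 1 and 11 called cluster genes in del-4, del-56 and the direct comparison. Outside the clusters it left 2, 2 and 1 members. Against WT these were *H2AJ* and *H4C16*, for which no test is given, and between the clones *H3-7*. The main counts of calls outside the clusters against WT include that untested pair. Rescaling to the same total raised the calls outside the clusters in del-4 from 5 to 8 and those of chaperones from 10 to 16, and took called neighbours of *H2AJ* in del-56 from 2 to 1. Called neighbours in del-4 were 2 in place of 1 with pseudocounts of 0.5 or 5, no filter, quantile normalization, edgeR and DESeq2. The median of cluster genes in del-4 was 0.45 with a pseudocount of 5, 0.47 after rescaling and 0.61 after quantile normalization, and that of members outside between the clones was 0.23 with a pseudocount of 0.5. The causes were not tested. The block on replicate number gave 31, 19 and 29 called cluster genes in del-4, del-56 and the direct comparison, and 5, 6 and 4 members outside, although the numbers do not pair the libraries.

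Without 1 library, called cluster genes ranged from 27 to 28 in del-4, 18 to 21 in del-56 and 26 to 29 between the clones, and members outside from 5 to 6, 6 to 8 and 4 to 5. Medians of cluster genes ranged from 0.46 to 0.61, -0.23 to -0.17 and 0.52 to 0.63, and those of members outside from -0.033 to 0.065, -0.27 to -0.043 and 0.032 to 0.28. Among these, the del-56 median outside was -0.27 without del-56 replicate 2 and -0.25 without WT replicate 3, and the median between the clones was 0.27 without del-4 replicate 2 and 0.28 without del-56 replicate 1. Processing genes ranged from 5 to 6 in del-4 and 3 to 6 in del-56 (3 when WT replicate 1 or del-56 replicate 3 was left out), chaperones from 7 to 10 and 11 to 15, S phase genes from 9 to 12 and 12 to 15, and neighbours of *H2AJ* from 1 to 2 in both. Beyond the lost calls given beside their genes, *H2BC18* in del-4 lost its call without del-4 replicate 2 (adjusted p = 0.0706) or 3 (0.0565) or WT replicate 1 (0.058) or 2 (0.0663), *H2AC17* in del-56 without replicate 2 (0.165) or 3 (0.0636) of del-56 or of WT (0.199 and 0.0644), and *H2BC4* in del-56 without WT replicate 2 (0.056). *WBP11* in del-56 lost its call without del-56 replicate 2 (0.0733) or 3 (0.0671) or WT replicate 2 (0.052). Between the clones, *H3C15* lost its call without del-4 replicate 1 (0.0585), and *H2AC8* without del-4 replicate 1 (0.15) or 2 (0.124) or del-56 replicate 1 (0.0908) or 3 (0.0911), all by limma.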
